A study of Mus musculus with 8 samples.

Results

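A set of 10 genes that neurons switch on within minutes of synaptic activity were followed across the whole cortex of 8 mice: Fos, Fosb, Junb, Egr1, Egr2, Egr4, Arc, Npas4, Nr4a1 and Bdnf. They were taken by name as a set of activity-induced early genes, not by a rule on any measured value, although earlier results of these data were known. All 10 were among the 22000 genes of the count table, and all 10 were among the 13879 genes that passed the filter on low counts. The study compared 4 mice labelled heterozygous for Mef2c, a gene of a transcription factor of neurons and microglia, with 4 control mice labelled wild type, each group holding 2 males and 2 females with 1 library per mouse. No treatment is named for either group, and the Mef2c allele, the strain, the age and the handling of the mice before the cortex was taken are not stated in the labels. Replicates are numbered 1 to 4 within a genotype. Replicates 1 and 3 of the heterozygous group and 2 and 3 of the wild type group were male.

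Early genes are transcribed from promoters that are already poised, so that calcium entering a neuron through NMDA receptors and voltage-gated channels reaches them through the factors CREB, SRF and MEF2 without new protein synthesis. Most of their products are themselves transcription factors that set a second wave of genes, while Arc and Bdnf act at the synapse. In the resting cortex their transcripts reflect recent activity of the living animal, and some also respond in glia and vessels to growth factors and stress. Arc, Nr4a1 and Bdnf have been described as genes that MEF2 factors bind and regulate in neurons.

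Total counts per library lay between 16092773 and 17841377. Mef2c itself was higher in the libraries labelled heterozygous, at 1304 ± 73.2 CPM against 995 ± 41.3 CPM (SD, n = 4; edgeR adjusted p = 0.000154), without overlap, so directions are given by label throughout, and reads of the 2 alleles are counted together. CPM are read counts scaled to a common library total. Markers of excitatory cortical neurons were present in every library, summing to between 2988 and 3253 CPM over 12 genes. None of these 12 was called between the genotypes (smallest p for Lamp5 and Neurod6, log2 fold changes -0.27 and 0.25), and none of 7 markers of inhibitory neurons was (Sst 0.18, Gad1 0.10). An unadjusted p under 0.05 in edgeR was found for 5 of the 12 and 2 of the 7, against 7.24% of all genes tested. Of markers of neighbouring regions, Fibcd1, 1 of 8 for hippocampus, was called higher (0.77), and Ramp3, 1 of 5 tested for thalamus, lower (-0.71). Ramp3 ran against its list, where 4 log2 fold changes lay above 0 and the median was 0.10. For striatum, none of 7 was called, but all 7 values lay above 0 (median 0.22). Of 8 microglia markers, 3 were called higher in the libraries labelled heterozygous (C1qb, C1qc and Ctss), and the summed level of the list was 394 to 445 CPM there against 348 to 377 CPM. The part of these cells in the early gene levels was not tested. In bulk tissue, fewer cells of a type and less RNA per cell cannot be told apart.

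Per kilobase of merged exon, the mean levels over the 8 libraries ran from 92.0 CPM for Egr1 to 2.43 CPM for Egr2. Arc (78.4 CPM per kilobase) followed Egr1, and their ranges over the libraries overlapped. Nr4a1 (30.7), Junb (29.9) and Egr4 (21.9) came next in CPM per kilobase, with ranges that also overlapped. Fos had 11.6 CPM per kilobase, and its highest library (14.3) lay below the lowest of Egr4 (15.97). Npas4 (6.24) and Bdnf (5.58) overlapped with each other, and Fosb (2.76) and Egr2 (2.43) formed the low end. Junb shares exonic sequence with Prdx2 on the opposite strand, and Bdnf with an antisense transcript. With no strand setting stated, reads of such partners cannot be told apart.

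Among the promoters of the set, those of Junb, Nr4a1 and Fos are shown because the levels of these 3 genes followed each other most closely from library to library, that of Egr4 because it had the smallest p between the genotypes, and that of Npas4 because it had the smallest p for a different genotype effect in males and females. Each line gives the 250 bases before the start of transcription, read 5′ to 3′ on the strand of the gene, from RefSeq on GRCm38.p6. Capitals mark the 5-letter core of the cAMP response element, the site of CREB, as TGACG or as CGTCA when it lies on the other strand.
Fos, chr12:85473640-85473889 (plus strand): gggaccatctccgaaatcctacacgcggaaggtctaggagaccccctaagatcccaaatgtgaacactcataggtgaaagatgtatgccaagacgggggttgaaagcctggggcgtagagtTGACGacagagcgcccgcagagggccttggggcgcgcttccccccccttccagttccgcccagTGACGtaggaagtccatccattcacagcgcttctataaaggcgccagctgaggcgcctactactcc
Junb, chr8:84978749-84978998 (minus strand): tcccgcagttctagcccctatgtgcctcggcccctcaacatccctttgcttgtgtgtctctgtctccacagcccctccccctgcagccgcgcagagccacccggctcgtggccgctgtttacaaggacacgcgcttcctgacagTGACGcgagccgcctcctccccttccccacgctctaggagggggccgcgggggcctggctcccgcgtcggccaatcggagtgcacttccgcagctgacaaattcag
Nr4a1, chr15:101266596-101266845 (plus strand): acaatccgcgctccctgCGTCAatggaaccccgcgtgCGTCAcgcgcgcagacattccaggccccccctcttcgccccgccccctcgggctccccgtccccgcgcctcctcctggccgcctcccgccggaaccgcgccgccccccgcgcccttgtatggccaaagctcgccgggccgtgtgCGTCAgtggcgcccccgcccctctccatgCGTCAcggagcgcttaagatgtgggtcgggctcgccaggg
Egr4, chr6:85513590-85513839 (minus strand): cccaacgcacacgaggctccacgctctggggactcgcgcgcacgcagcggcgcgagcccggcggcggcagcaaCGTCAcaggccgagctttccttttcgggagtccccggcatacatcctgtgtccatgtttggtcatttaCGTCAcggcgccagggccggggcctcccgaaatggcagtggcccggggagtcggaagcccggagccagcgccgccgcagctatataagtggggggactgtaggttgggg
Npas4, chr19:4989972-4990221 (minus strand): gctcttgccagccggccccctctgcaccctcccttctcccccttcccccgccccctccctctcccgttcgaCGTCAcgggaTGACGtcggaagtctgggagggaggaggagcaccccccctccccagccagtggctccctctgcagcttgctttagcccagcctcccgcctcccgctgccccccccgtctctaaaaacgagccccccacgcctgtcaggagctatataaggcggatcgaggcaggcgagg

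The motifs were searched in 8 of the genes, all but Egr1 and Arc, and all 8 had at least 1 such core within 250 bases before to 50 bases after a start. The same letters stood in 23.0% of the 27025 genes of the table and in 20.8% of its 32851 windows. Nr4a1 had 4 cores, at 233, 213, 69 and 40 bases before its start, and Fos had cores at 129 and 66 bases. In Npas4 the 2 cores lay at 179 and 169 bases, in opposite orientations. Bdnf has several starts in the table, and 1 of its windows held a core, 35 bases before that start. The full element TGACGTCA, which contains the core, was in none of the 8 genes and in 2.03% of all genes. The CArG box, the site of SRF, was found in Egr2 alone among the 8, and in 1.81% of all genes. The consensus site of MEF2 was in none of the 8 and in 3.70% of all genes, and the EGR core GCGTGGGCG in none of the 8 and in 0.707% of all genes. Both strands were searched, and bases outside these windows were not, so sites farther from a start would be missed. These counts describe the letters in the windows and were not tested.

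The comparison of the genotypes asked whether early gene levels differ with the Mef2c label. Egr4, Egr2, Bdnf, Fosb, Egr1 and Fos had lower mean levels in the libraries labelled heterozygous, and Arc, Npas4, Junb and Nr4a1 had higher ones. None of the 10 passed edgeR's quasi-likelihood test at an adjusted p under 0.05, against 0.267% of all 13879 genes that did. At an unadjusted p under 0.05 there were 1 member (Egr4) and 1005 genes, DESeq2 called 1 member and 80 genes in all, and limma-voom 0 members and 40 genes. The groups overlapped for each of the 10, while 4.55% of all genes tested had no overlap. The median log2 fold change of the 10 was -0.12, with 4 above 0 and 6 below, against a median of -0.001 over all genes.

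Egr4, a zinc finger factor of the EGR family that is largely restricted to the nervous system, had the smallest p of the set. It measured 34.3, 39.7, 46.4 and 41.3 CPM in heterozygous replicates 1 to 4 and 58.4, 44.3, 63.0 and 48.7 CPM in wild type replicates 1 to 4. The 2 groups overlapped by a single pair of libraries, heterozygous replicate 3 standing just above wild type replicate 2. The log2 fold change was -0.41 ± 0.12 (SE; 95% interval -0.67 to -0.14) (edgeR adjusted p = 0.344). It lay below 0 in both runs of animal numbers and in both sexes, at -0.40 in males and -0.39 in females as differences of mean log2 levels. DESeq2's Wald test gave Egr4 an adjusted p of 0.0481, and over all 21 alternatives its adjusted p ranged from 0.00390 to 1.00.

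The other EGR factors bind the same GC-rich sites. Egr2 lies on the plus strand at chr10:67535475-67542188 (GRCm38). Egr1, the most abundant of the family in cortex, had 359, 395, 445 and 355 CPM in heterozygous replicates 1 to 4 and 469, 367, 524 and 385 CPM in wild type replicates 1 to 4. Its groups overlapped widely, with a log2 fold change of -0.17 ± 0.14 (SE), which was -0.059 without wild type replicate 3 and -0.092 with the RNA integrity number as a term. Egr2, better known from the myelination of peripheral nerve, had 5.69, 3.42, 10.2 and 9.01 CPM against 8.96, 9.10, 12.5 and 7.27 CPM in the same order. Its lowest level, in heterozygous replicate 2, rested on 59 reads, with a 95% exact Poisson interval of 2.61 to 4.42 CPM for counting error only. The 2 low libraries were heterozygous replicates 1 and 2, both of the lower run of animal numbers, while replicates 3 and 4 lay within the wild type range. The log2 fold change of Egr2 was -0.42 ± 0.30 (SE; 95% interval -1.09 to 0.26), and it was -0.95 in the first run and 0.002 in the second as differences of mean log2 levels. Egr3, the remaining family member and not part of the set of 10, had 246 ± 26.4 CPM against 304 ± 33.7 CPM (SD, n = 4), and edgeR gave it an adjusted p of 0.469.

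The AP-1 factors pair as dimers of a FOS and a JUN protein. Fosb lies on the minus strand at chr7:19302696-19310051 (GRCm38), and the promoters of Fos and Junb are printed above. Fos, the classical marker of recently active neurons, had 29.9, 20.2, 30.4 and 26.2 CPM in heterozygous replicates 1 to 4 and 33.6, 21.3, 31.3 and 25.1 CPM in wild type replicates 1 to 4. Either genotype held low and high libraries of Fos, with replicate 2 lowest in both, and the log2 fold change was -0.07 ± 0.17 (SE). It was 0.05 without heterozygous replicate 2 and 0.08 without wild type replicate 1. Fosb, whose truncated product accumulates under repeated stimulation, had 13.7, 16.9, 17.7 and 14.9 CPM against 22.5, 16.01, 21.9 and 14.1 CPM. Wild type replicates 1 and 3 stood above all other libraries for Fosb, and the log2 fold change was -0.24 ± 0.14 (SE). It was -0.10 without wild type replicate 1, -0.13 without replicate 3 and -0.14 with the RNA integrity number as a term. Junb, a JUN protein that is a weaker activator than JUN itself, had 83.1, 52.5, 76.8 and 74.1 CPM against 79.7, 56.4, 67.6 and 60.0 CPM. Heterozygous replicate 2 was the lowest and replicate 1 the highest library for Junb, and the log2 fold change was 0.11 ± 0.18 (SE).

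Arc, whose product removes AMPA receptors from synapses, was the most variable of the abundant genes and lies on the minus strand at chr15:74669083-74672570 (GRCm38). It had 388, 128, 236 and 293 CPM in heterozygous replicates 1 to 4 and 295, 195, 174 and 210 CPM in wild type replicates 1 to 4. The highest and the lowest library both came from the heterozygous group, 3.03-fold apart, and both were of the lower run of animal numbers. The log2 fold change was 0.25 ± 0.40 (SE; 95% interval -0.76 to 1.26), and without heterozygous replicate 1 the value was -0.01. It was 0.042 with the RNA integrity number of the libraries, 8.6 to 9, as a further term. Npas4, a neuron-restricted factor that follows calcium entry, had 38.7, 20.8, 29.6 and 20.04 CPM against 36.4, 21.0, 19.1 and 20.9 CPM. Heterozygous replicate 1 and wild type replicate 1 stood out high, and 5 of the other 6 libraries lay between 19.1 and 21.0 CPM. The log2 fold change of Npas4 was 0.14 ± 0.34 (SE), -0.06 without heterozygous replicate 1 and -0.02 without wild type replicate 3.

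Nr4a1, an orphan nuclear receptor, had the smallest ratio of highest to lowest library in the set, 1.38. It had 119, 89.1, 120 and 115 CPM in heterozygous replicates 1 to 4 and 121, 87.9, 107 and 102 CPM in wild type replicates 1 to 4. Replicate 2 was the lowest library of either genotype, the log2 fold change was 0.08 ± 0.12 (SE; 95% interval -0.20 to 0.37), and without wild type replicate 2 it was -0.01. Bdnf, a secreted neurotrophin that signals through TrkB, lies on the plus strand at chr2:109674700-109727007 (GRCm38). It had 24.5, 40.3, 30.1 and 32.6 CPM against 39.3, 40.7, 36.95 and 33.0 CPM. Replicates 1, 3 and 4 of the heterozygous group lay below all wild type libraries of Bdnf, and replicate 2 lay near the top. The log2 fold change of Bdnf was -0.24 ± 0.12 (SE; 95% interval -0.49 to 0.007) (edgeR adjusted p = 0.708).

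**Figure D1:**
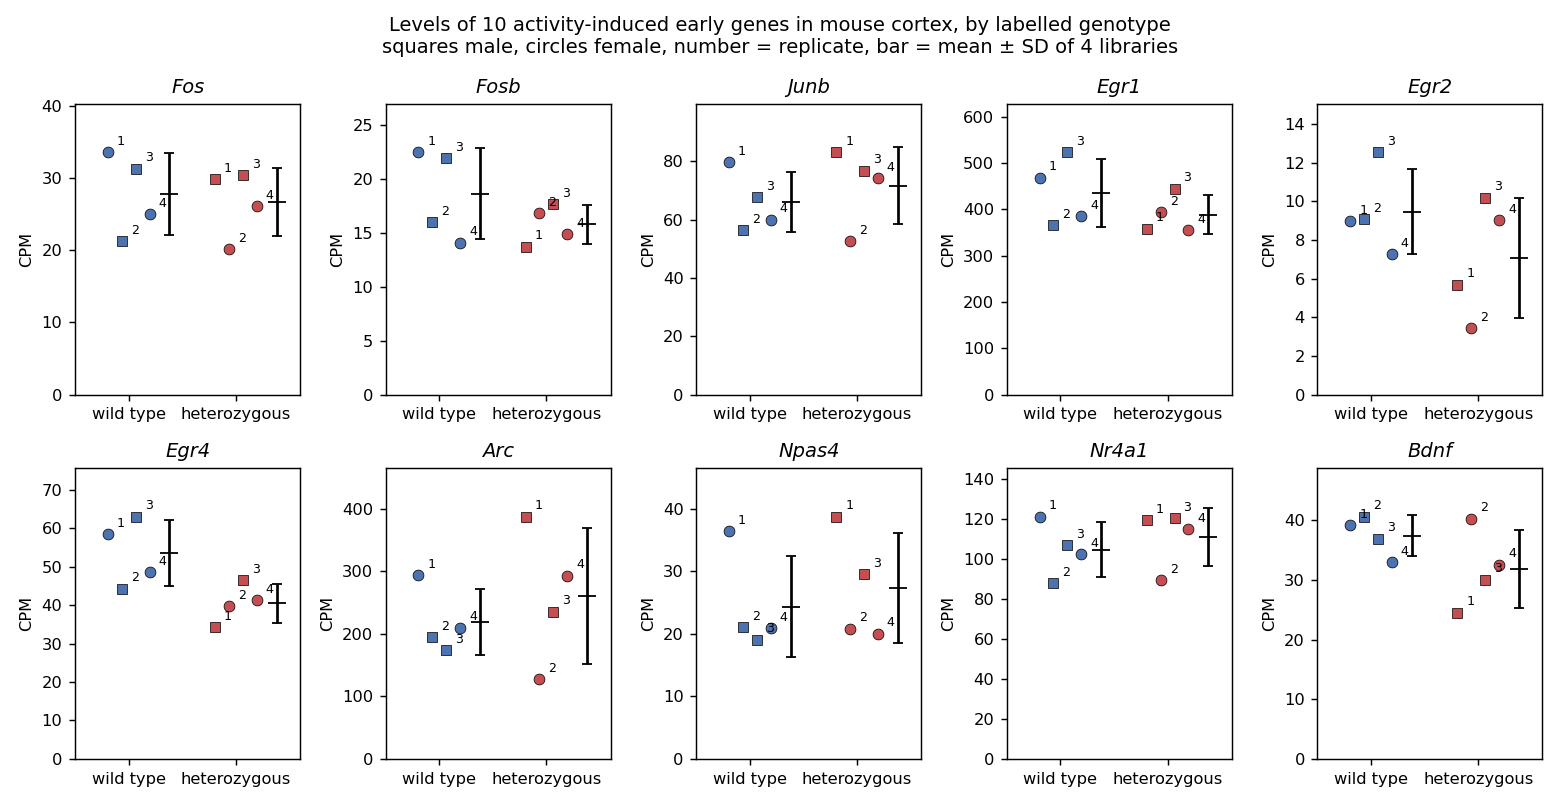
Levels of the 10 early genes in CPM (vertical axis, from 0) in each library, with wild type on the left and heterozygous on the right of each panel. Squares are males, circles females, the small number is the replicate and the bar gives the mean ± SD of 4 libraries. The groups overlap in each panel, and Egr4 comes closest to a separation, with 34.3 to 46.4 CPM against 44.3 to 63.0 CPM.

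An interaction term was fitted to compare the genotype difference of males with that of females. In males, Arc, Npas4, Junb, Nr4a1 and Fos had higher mean levels in the libraries labelled heterozygous, and in females they had lower ones. For Npas4 the difference of mean log2 levels was 0.74 in males and -0.42 in females, for Arc 0.71 and -0.36, for Junb 0.37 and -0.15, for Nr4a1 0.30 and -0.14, and for Fos 0.22 and -0.33. Bdnf had -0.51 in males and 0.01 in females. Egr4, Egr2, Egr1 and Fosb had values below 0 in either sex. No member was called for the interaction by edgeR's quasi-likelihood test, DESeq2 or limma-voom, and edgeR called 0% of all genes. At an unadjusted p under 0.05 there were 3 members (Npas4, Bdnf and Nr4a1) and 366 genes, 2.64% of those tested.

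For Npas4 the male minus female difference of the genotype effect was 1.26 ± 0.33 (SE; 95% interval 0.52 to 2.00) on the log2 scale (edgeR adjusted p = 1.00), although only 16 genes had a smaller p. The 2 heterozygous males had 38.7 and 29.6 CPM and the 2 wild type males 21.0 and 19.1 CPM. The 2 heterozygous females had 20.8 and 20.04 CPM and the 2 wild type females 36.4 and 20.9 CPM. The female side therefore rests on wild type replicate 1, and the difference was 0.80 without that library. Without wild type replicate 4 it was 1.601, the 1 setting in which a member was called for the interaction. That fit left wild type replicate 1, at 36.4 CPM, as the only wild type female, so it rests on that mouse. Each sex and genotype held 2 mice, and these 5 genes also followed each other across libraries, so their common direction is not 5 separate observations.

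**Figure D2:**
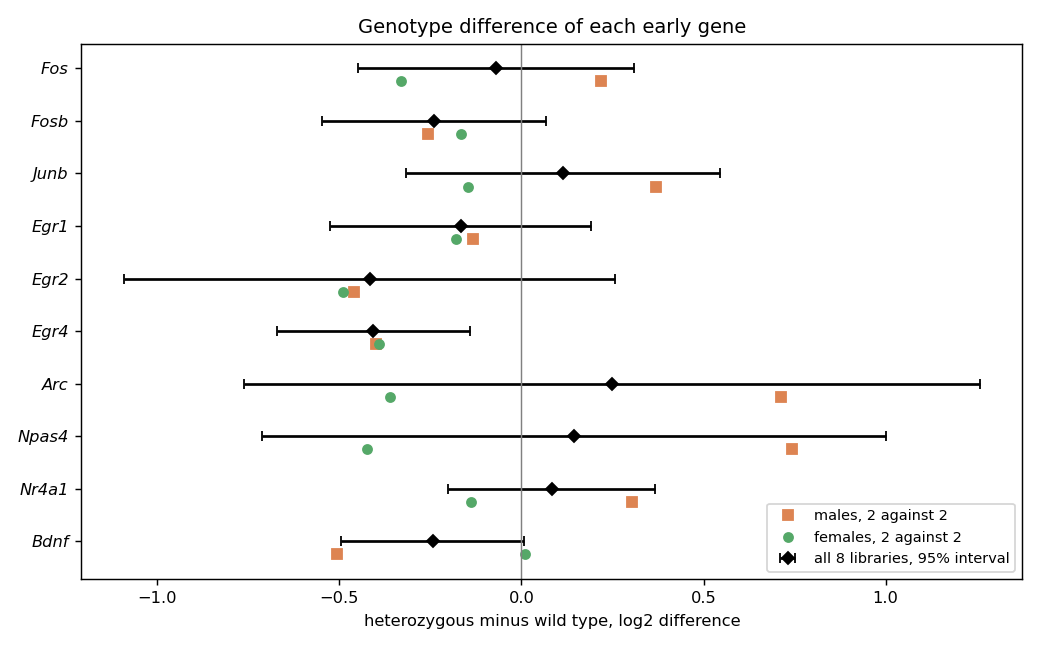
Heterozygous minus wild type difference on the log2 scale (horizontal axis) for each early gene. Black diamonds with bars are the fit of all 8 libraries with its 95% interval, and squares and circles are differences of mean log2 (CPM + 0.5) in 2 against 2 males and females. The intervals of all genes but Egr4 include 0, and males and females lie on opposite sides of 0 for Fos, Junb, Arc, Npas4, Nr4a1 and, narrowly, Bdnf.

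Between the sexes, no early gene was called by edgeR, against 0.0288% of all genes tested, and 0 were called by DESeq2 or limma-voom. An unadjusted p under 0.05 in edgeR was found for 0 members and for 2.92% of all genes tested. The largest male minus female log2 difference of the set was 0.38 ± 0.30 (SE) for Egr2, and the other 9 lay between -0.15 and 0.12. The animal numbers in the titles fall into a lower and a higher run, called the first and the second run here, with 1 mouse of each sex and genotype in either, and no label explains the runs. No early gene was called between the runs by edgeR, against 0.382% of all genes, and 0 were called by DESeq2 or limma-voom. In edgeR, 1 member (Egr2) and 1413 genes, 10.2% of those tested, had an unadjusted p under 0.05. Egr2 came closest, with a second minus first log2 difference of 0.56 ± 0.20 (SE) (edgeR adjusted p = 0.307), and without wild type replicate 1 it was 0.80 with an adjusted p of 0.0322. The score of the heat shock genes, the mean of centred log2 levels, lay between 0.12 and 0.22 in the 4 libraries of the first run and between -0.23 and -0.09 in those of the second. The score of the endothelial markers lay between 0.16 and 0.31 in the first run and between -0.35 and 0.07 in the second. Their part in the Egr2 difference was not tested.

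The early genes varied more between mice than most genes of their level. After genotype and sex had been fitted, the residual SD of each of the 10 lay above the 90th percentile of the genes in the same decile of expression level, from 94.7% for Fosb to 99.9% for Arc. The biological coefficient of variation estimated by edgeR was 37.7% for Arc, where genes of that level had a trend of 6.03% and counting error alone gives 1.56%. For Npas4 it was 32.0% against a trend of 8.82%, for Egr2 28.2% against 13.2%, and for Fos 16.08% against 8.63%. Bdnf had the lowest value of the set, 11.2% against 7.93%. The spread was not particular to these genes, since 21 of 37 other rapid early genes and all 6 markers each of endothelial cells and oligodendrocytes also lay above the 90th percentile, as did all 7 striatum markers, 5 of 8 glucocorticoid response genes and 4 of 7 heat shock genes. None of 35 upstream signalling and transcription factor genes did.

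The early genes did not vary as a single block. Averaged over the 10 genes, wild type replicate 1 had the highest score (0.30) and all 10 genes above their own mean, and heterozygous replicate 2 had the lowest score (-0.32) with 1 gene, Bdnf, above its mean. Heterozygous replicate 1 was split. Arc and Npas4 stood 0.77 and 0.63 above their means there on the log2 scale, while Egr4, Egr2 and Bdnf stood at -0.42, -0.43 and -0.47. Wild type replicate 3 showed the reverse order, with Egr2 at 0.65, Egr4 at 0.44, Egr1 at 0.36 and Fosb at 0.36, and with Arc at -0.39 and Npas4 at -0.37. In heterozygous replicate 2 the score of striatum markers was the highest of the 8 libraries (0.57) and that of oligodendrocyte markers the lowest (-0.28). In wild type replicate 1 the striatum score was the lowest (-0.48), but the oligodendrocyte score was also below 0 (-0.16). Heterozygous replicate 1 had a striatum score of 0.35 with an early gene score of 0.02. The part of such marker differences, or of dissection, in the early gene levels was not tested.

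**Figure D3:**
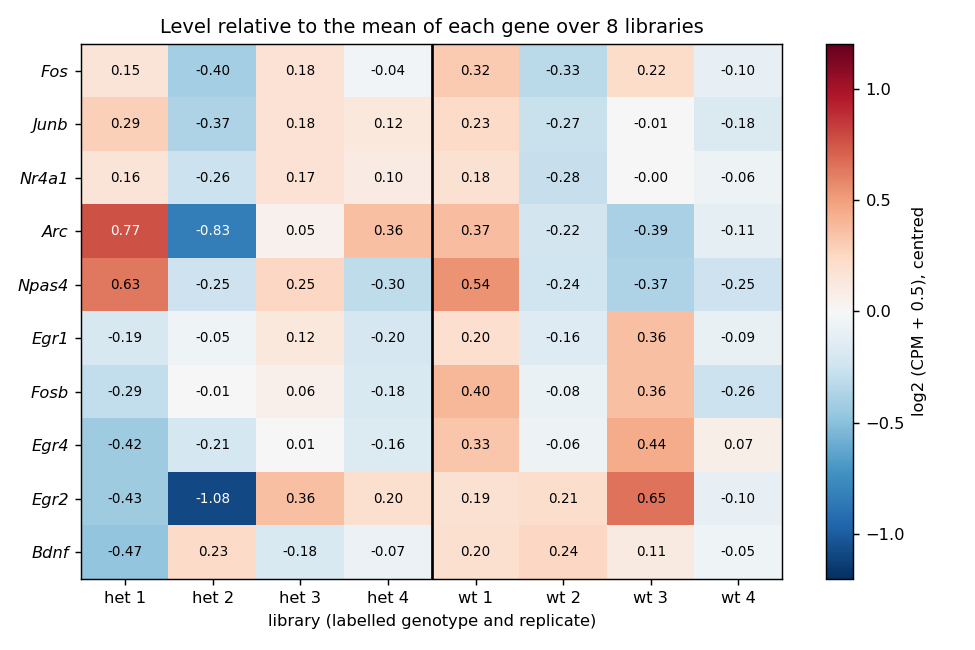
Centred log2 (CPM + 0.5) of each early gene (rows) in each library (columns, het for heterozygous and wt for wild type, with the replicate number). Red is above and blue below the mean of that gene over the 8 libraries. Heterozygous replicate 1 is high for Arc (0.77) and Npas4 (0.63) and low for Egr4 (-0.42) and Egr2 (-0.43), and wild type replicate 3 has the opposite colours.

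Over the 45 pairs of early genes, 35 correlations across the 8 libraries were positive and 10 negative. The pair of Junb and Nr4a1 had Pearson's r = 0.97, with a two-sided exact permutation p of 0.000645 that was 0.0290 after Benjamini-Hochberg adjustment over the 45 pairs, the 1 pair under 0.05. Its Spearman's rho was 0.90, with an exact permutation p of 0.00456 and an adjusted p of 0.103. Without heterozygous and wild type replicate 2, the 2 libraries farthest from the median of Junb, r was 0.96. With genotype means removed it was 0.96, and with run means removed 0.98. With any single library other than wild type replicate 3 left out, no pair passed after adjustment. A run holds 4 libraries, too few for a correlation of its own.

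The next pairs missed the threshold after adjustment. Fosb and Egr1 had r = 0.91 (rho = 0.86), with an adjusted exact permutation p of 0.0647, and r was 0.75 without the 2 libraries farthest from the median of Fosb. Junb and Arc had r = 0.87 (rho = 0.90), also with an adjusted exact permutation p of 0.0647, and 0.78 without the 2 farthest libraries. Fos had r = 0.90 with Nr4a1 and 0.88 with Junb, both with an adjusted exact permutation p of 0.0703. Without heterozygous and wild type replicate 2 these were 0.59 and 0.60, so they rested largely on those libraries. Egr1 and Egr4 had r = 0.86, also with an adjusted exact permutation p of 0.0703, which was 0.50 without wild type replicates 3 and 1. Over the 8 libraries, Arc had r = -0.27 with Egr1 and -0.25 with Egr4. The first was -0.38 without wild type replicates 3 and 1, and the second 0.57 without wild type replicate 3 and heterozygous replicate 1. Bdnf and Arc had r = -0.70 with an adjusted exact permutation p of 0.191, and r was -0.21 without heterozygous replicates 1 and 2.

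**Figure D4:**
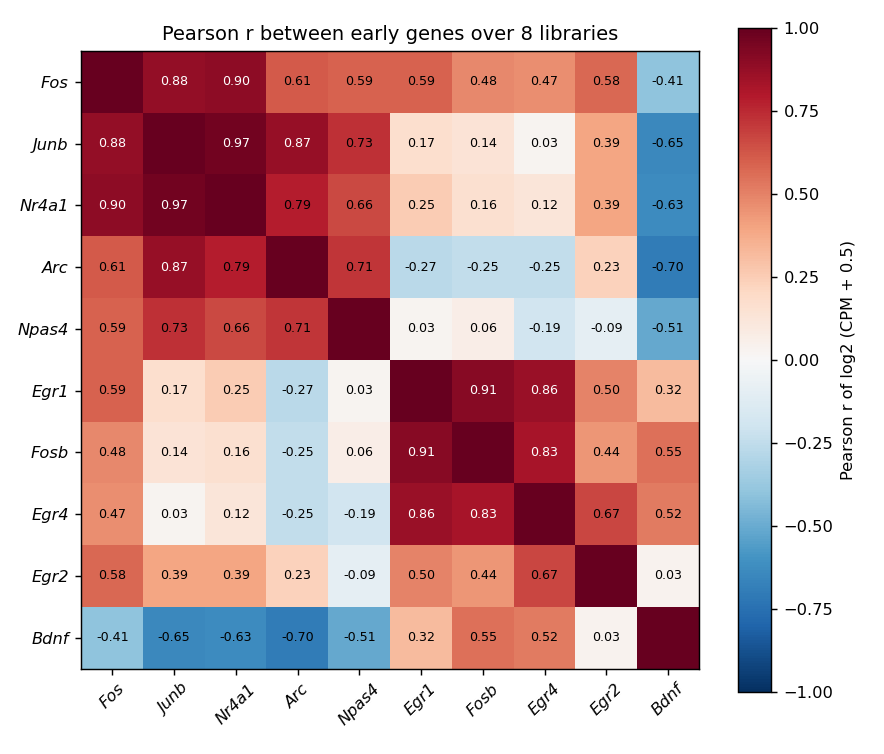
Pearson's r of log2 (CPM + 0.5) between the early genes over 8 libraries, with red for positive and blue for negative values. Fos, Junb, Nr4a1, Arc and Npas4 in the upper left have r between 0.59 and 0.97 with each other. Egr1, Fosb and Egr4 have r between 0.83 and 0.91. Fos with Arc has r of 0.61, which is 0.09 without heterozygous and wild type replicate 2. Fosb with Egr4 has r of 0.83, which is 0.34 without wild type replicates 1 and 3. Bdnf has r of -0.70 with Arc, which is -0.21 without heterozygous replicates 1 and 2. After adjustment over 45 pairs, Junb with Nr4a1 passed.

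Among 37 other rapid early genes tested, no member was called between the genotypes, 25 had a log2 fold change above 0 and 12 below, and the median was 0.09. The smallest p after that of Egr3 was that of Errfi1, at 39.6 ± 3.22 against 34.7 ± 0.741 CPM (SD, n = 4). Errfi1, an inhibitor of EGF receptor signalling, is also in the list of glucocorticoid response genes. Among 16 genes listed here as later response genes, none was called, 7 were above 0 and 9 below, and the median was -0.09. An unadjusted p under 0.05 in edgeR was found for 4 of the 16, all 4 below 0, against 7.24% of all genes tested. Rgs4, which shortens G protein signals, had 702 ± 25.8 against 805 ± 45.3 CPM (SD, n = 4) and a log2 fold change of -0.20 ± 0.05 (SE) (edgeR adjusted p = 0.0695). The groups did not overlap for Rgs4 or for Errfi1, as for 4.55% of all genes tested. Cdkn1a, a cell cycle inhibitor, had 18.8 ± 3.37 against 25.4 ± 4.21 CPM (edgeR adjusted p = 0.297). Homer1, a postsynaptic scaffold gene described as a MEF2 target, had 299 ± 61.5 against 337 ± 20.9 CPM. Of 35 upstream genes, from the receptor subunit genes Grin1 and Grin2a to Creb1 and Srf, none was called and the median was 0.03. Of these 35, 7 had an unadjusted p under 0.05 in edgeR, against 7.24% of all genes tested. The mean of their centred log2 levels was 0.0076 to 0.032 in heterozygous libraries and -0.044 to 0.0054 in wild type libraries. Camkk1, a kinase of the calcium pathway, had the smallest p, with a log2 fold change of 0.17. Of 14 partners and receptors of the products, the AMPA receptor gene Gria1 was called higher, at 384 ± 15.8 against 330 ± 11.0 CPM (SD, n = 4), with a log2 fold change of 0.22 (edgeR adjusted p = 0.0454). The TrkB gene Ntrk2 and the other 12 were not called.

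**Figure D5:**
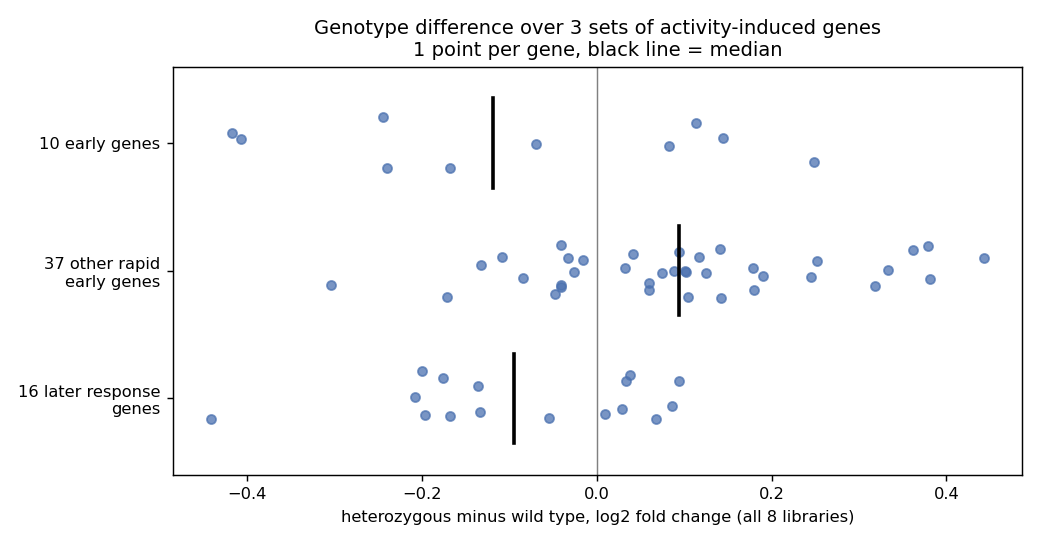
Heterozygous minus wild type log2 fold change (horizontal axis) of the 10 early genes, 37 other rapid early genes and 16 later response genes, with 1 point per gene and the median as a black line. The medians are -0.12, 0.09 and -0.09, the points of each set lie on both sides of 0, and no gene of the 3 sets was called.

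Correlations with other early genes were counted gene by gene. Of 530 relations between the 10 genes and the 53 other rapid and later genes, 3 had an adjusted p under 0.05, and none did with Spearman's rho. Ier2, an early gene of many cell types, followed Arc with r = 0.96, rho = 0.98 and an exact permutation p of 9.92e-05, which was 0.0263 after Benjamini-Hochberg adjustment. It had 14.6, 5.92, 10.5 and 13.4 CPM in heterozygous replicates 1 to 4 and 11.8, 7.77, 6.07 and 9.21 CPM in wild type replicates 1 to 4, so its highest and lowest libraries were those of Arc. Tiparp followed Arc with r = 0.93, rho = 0.95 and an adjusted exact permutation p of 0.0351. Klf4, a factor of endothelial and other cells, ran against Nr4a1 with r = -0.95, rho = -0.98 and an adjusted exact permutation p of 0.0263. Leaving out the 2 libraries farthest from the median of Arc or Nr4a1 gave r of 0.96, 0.84 and -0.81 for these 3 relations. Dusp1, a MAP kinase phosphatase, had r = 0.93 with Arc and an adjusted exact permutation p of 0.0723, and Nrn1 had r = 0.97 with Bdnf and an adjusted exact permutation p of 0.205.

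Across all 13869 other tested genes, the 10 with the highest Pearson r over the 8 libraries with the mean early gene score were Tmbim4 (r = 0.95), B9d1 (0.94), Clk2 (0.94), Coprs (0.93), Inpp5k (0.93), Kif1bp (0.93), Dgcr14 (0.92), Impdh1 (0.91), RP24-122D14.1 (0.91) and Fn3k (0.90). None belonged to a list of activity-induced genes, and their highest library was between 1.09 and 1.56 times their lowest. The closest listed gene was Cyr61, with r = 0.77, in place 140 of 13869. These values are a description of 8 libraries.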

How the data were processed

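Polyadenylated RNA of whole cortex was sequenced from 8 mice. What the authors deposited are unnormalised read counts for each gene symbol. STAR 2.5.2b, HTSeq and the build mm10 are named in the submitters' processing notes, and no source used here gives the annotation, strand setting or filters. Of 22000 rows, 4602 held no read.

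Here filterByExpr of edgeR, by genotype with a minimum count of 10, left 13879 genes, which were scaled by TMM. Genotypes were compared with the robust quasi-likelihood F-test of edgeR 4.0.16 in R 4.3.3, with sex and genotype as terms and Benjamini-Hochberg adjustment over all genes tested. The sex, interaction and run effects came from fits of the same kind. Standard errors were taken from the fold change and its F value. The pipeline was tested on simulated data. Correlations used log2 of CPM plus 0.5 and all 40320 pairings, with p as the doubled smaller tail (numpy, scipy 1.17.1); the smallest possible p is 4.96e-05. The 530 relations to other early genes were added after the data had been seen. Exon lengths and coordinates are from GENCODE M21 (GRCm38).

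The members and gene lists were chosen with earlier results of these data known. The genes named are the 10 early genes, Mef2c, the called genes or the 2 smallest p of each list of activity-related genes and of neuron and microglia markers, and the 10 genes most like the mean early gene score; Homer1, Ier2, Tiparp, Klf4, Dusp1, Nrn1, Cyr61 and Ntrk2, and the marker genes of other regions, were named after their values were seen. Alternatives were DESeq2 size factors, upper-quartile scaling, no filter, a filter of 1 CPM in 4 libraries, DESeq2 1.42.0, limma-voom 3.58.1, other covariates, each sex and run alone, an adjusted p of 0.1 and each library left out. The mice were separate animals per the labels. Intervals for counts cover counting error only. A gene that this rule names in a list of activity-related genes is not reported here.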

Additional observations from a re-analysis of the deposited data

Results flagged for a closer look

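Of 22 groups of 4 libraries looked at (the 10 early genes and Mef2c in each genotype), 1 held a library far from the other 3 by Dixon's gap ratio: Npas4 was 36.4 CPM in wild type replicate 1, against 19.1 to 21.0 CPM in the other wild type libraries. Chance flags about 1 in 20 such groups.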

How the results depend on the processing

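The call of no early gene between the genotypes held in all 8 fits with a library left out and in 11 of 14 other settings. DESeq2's Wald test called 1 member (Egr4). The first run of animal numbers alone called 2 (Egr2 and Egr4), and the second run alone called 1 (Arc, log2 fold change 0.46, adjusted p in edgeR 3.20e-05). Either run has 4 libraries and 1 residual degree of freedom, so its spread is borrowed almost wholly from other genes. The interaction and run counts each ranged from 0 to 1 with a library left out, and the sex count stayed at 0. Of 210 alternative genotype values of the 10 genes, 190 kept sign and side of the threshold, 4 gained a call and 16 changed sign. Those that changed sign were, in males alone, Fos (0.20), in females alone, Junb (-0.14), Arc (-0.26), Npas4 (-0.49), Nr4a1 (-0.13) and Bdnf (0.013), in the first run, Junb (-0.016), Arc (-0.087) and Nr4a1 (-0.00031), and in the second, Fos (0.0088). With a library left out, the value ranged from -0.22 to 0.076 for Fos, -0.011 to 0.54 for Arc, -0.058 to 0.46 for Npas4 and -0.014 to 0.19 for Nr4a1, and without a change of sign from 0.011 to 0.25 for Junb, -0.37 to -0.10 for Fosb, -0.27 to -0.059 for Egr1, -0.72 to -0.21 for Egr2, -0.50 to -0.29 for Egr4 and -0.36 to -0.14 for Bdnf. With the RNA integrity number as a term, Arc was 0.042, Egr1 -0.092 and Fosb -0.14, while Egr2 was -0.53 and Egr4 -0.35. Bdnf was then -0.20, Fos -0.059, Npas4 0.14, Junb 0.079 and Nr4a1 0.060. The run difference ranged from -0.054 to 0.33 for Fos, -0.14 to 0.17 for Fosb, -0.12 to 0.23 for Junb, -0.016 to 0.20 for Egr1, -0.50 to 0.21 for Arc, -0.023 to 0.24 for Nr4a1 and -0.26 to 0.0054 for Bdnf. The count of correlated pairs was 0 with Spearman's rho, 5 with genotype means removed and 7 with run means removed. It was 3 without wild type replicate 3 and 0 without any other single library. The count of genes called between the genotypes was 37 as reported, 80 with DESeq2, 82 with no filter, 72 with the run as a term, 72 at an adjusted p of 0.1, 7 in males, 6 in females, 164 and 70 in the 2 runs and 19 to 80 with a library left out. Between the runs it was 53, 95 with no filter, 111 at 0.1 and 11 to 77 with a library left out. The causes were not tested. The labels give no replicate numbers that pair the mice. With sex and run as terms, which places 1 mouse of each genotype in every combination, edgeR called 0 of the 10 genes, with the smallest adjusted p for Egr4 (0.144) and Egr2 (0.483, log2 fold change -0.48).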
